A study of Mus musculus with 31 samples.

Results

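*Oat* and *Slc1a2*, with 8 other genes that hepatocytes around the central vein use under Wnt signalling, were followed in the livers of 31 mice. The 10 genes were *Axin2*, *Lgr5*, *Znrf3* and *Tbx3*, which belong to the Wnt pathway or answer to it, *Oat*, *Slc1a2*, *Glul* and *Rhbg*, which handle glutamate, ornithine and ammonium, and *Lect2* and *Gulo*. They were found by their gene symbols, and all 10 were among the 31172 symbols used in each mouse. They were chosen by their levels in the 5 treatment groups, with those levels already known, so every difference between treatment groups given for them is a description and carries no p-value. The recorded rule names neither sex nor the spread among DPBS-treated mice, and tests are given there, although the levels of those mice were among the ones known.

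All 31 mice were hFIX-R29X animals, a hemophilia B model in which a human factor IX minigene with the nonsense mutation R29X stands under the human transthyretin promoter and mouse *F9* is absent. Livers were collected 48 h after the last of 6 subcutaneous doses, given every 5 days by the treatment protocol and called weekly in the dose entry, to mice of 8 to 14 weeks. The groups were DPBS (n = 11, 6 female and 5 male), Control-GalNAc-ASO at 15 mg/kg (n = 4, 2 of each sex) or 20 mg/kg (n = 6, 3 of each sex), and *Upf3b*-GalNAc-ASO at 10 mg/kg or 20 mg/kg (n = 5 each, 2 female and 3 male). An antisense oligonucleotide (ASO) of this kind directs the cleavage of its target mRNA, and the GalNAc sugar brings it into hepatocytes. UPF3B is a factor of nonsense-mediated mRNA decay, the pathway that degrades transcripts with premature stop codons. The comparison at the lower doses sets 10 mg/kg of one ASO against 15 mg/kg of the other, so dose and target cannot be told apart there. Each sample was a separate mouse.

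The liver lobule is divided into zones between the portal tracts and the central vein. Endothelial cells of the central vein release Wnt ligands and R-spondin, and the hepatocytes nearest to them keep β-catenin active and use a set of genes that the rest of the lobule leaves low. Among these, glutamine synthetase, the glutamate carrier and ornithine aminotransferase take up and convert the glutamate and ammonium that reach the end of the lobule. RNA from whole liver was measured, so fewer cells of a type and less RNA per cell cannot be told apart.

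Values were TPM, a share of the library's transcripts scaled to the same total in each mouse, and levels are compared between mice and not between genes. The labels name a kit for 3′ ends and the paper's methods another protocol, and most values behaved as scaled reads not divided by transcript length. The smallest step between values put the depth at 1014125 to 7349292 reads for a mouse (median 3604919), and 3 reads correspond to between 0.406 and 2.94 TPM, a floor that covers counting error only. The targeted gene, *Upf3b*, had a mean and SD of 97.3 ± 33.2 TPM with DPBS. It was 57.8 ± 22.1 TPM and 111 ± 21.8 TPM with the Control-GalNAc-ASO at 15 and 20 mg/kg, and 21.5 ± 20.0 TPM and 7.80 ± 5.82 TPM with its own ASO at 10 and 20 mg/kg. Of the hepatocyte markers examined, 6 of 7 were found and none was at 0 in any group. Replicate 3 of the 10 mg/kg *Upf3b*-GalNAc-ASO group had the fewest reads, 1014125, its *Upf3b* was 53.7 TPM, and its median correlation across genes with the mice of its group was 0.677, against 0.724 to 0.897 in the other 30 mice. DPBS replicates 5, 6 and 7 also stood apart within their group, with median correlations of 0.792, 0.724 and 0.777. All 3 were among the 6 females of that group, so leaving them out also changes its balance of the sexes. Replicates 6 and 7 were shallow, with 1190525 and 1175565 reads. For genes of the set, the log2 differences from DPBS and the relations among DPBS-treated mice named below are given with and without those 3. For other single genes they are given with all DPBS-treated mice only.

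*Oat* lies on chromosome 7 (GRCm38, chr7:132557478-132576398, minus strand), *Slc1a2* on chromosome 2 (chr2:102658659-102790784, plus strand) and *Glul* on chromosome 1 (chr1:153899944-153909723, plus strand). The 250 bases before the annotated start are shown for these 3 genes because at 20 mg/kg their values with the *Upf3b*-GalNAc-ASO all lay under those with the control ASO. They are from RefSeq (GRCm38.p6), at chr7:132576399-132576648 (minus strand), chr2:102706188-102706437 (plus strand) and chr1:153899679-153899928 (plus strand). The *Slc1a2* start used by RefSeq lies inside the gene as GENCODE draws it, so a different start of this gene is not covered. Capitals mark the letters CTTTGAT or CTTTGAA, or their reverse complements ATCAAAG and TTCAAAG, to which the TCF and LEF partners of β-catenin are known to bind.
Oat: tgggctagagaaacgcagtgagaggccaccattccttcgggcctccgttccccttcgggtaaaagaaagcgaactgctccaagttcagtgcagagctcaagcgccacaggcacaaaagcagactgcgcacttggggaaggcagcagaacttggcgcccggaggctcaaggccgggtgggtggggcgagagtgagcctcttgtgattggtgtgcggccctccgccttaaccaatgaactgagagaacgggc
Slc1a2: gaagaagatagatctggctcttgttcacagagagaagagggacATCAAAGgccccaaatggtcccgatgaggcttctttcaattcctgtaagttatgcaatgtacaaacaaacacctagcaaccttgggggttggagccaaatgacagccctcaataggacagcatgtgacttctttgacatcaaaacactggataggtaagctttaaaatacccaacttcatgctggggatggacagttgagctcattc
Glul: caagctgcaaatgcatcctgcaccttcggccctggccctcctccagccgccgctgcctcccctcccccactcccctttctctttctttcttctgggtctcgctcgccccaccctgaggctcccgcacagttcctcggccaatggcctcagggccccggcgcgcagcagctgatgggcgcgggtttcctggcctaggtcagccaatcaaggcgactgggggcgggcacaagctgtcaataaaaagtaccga
The letters occurred once in the *Slc1a2* sequence, as ATCAAAG starting 207 bases before the start, and not in those of *Oat* and *Glul*. Promoters of 5 of the 10 genes were matched. *Lect2* held ATCAAAG starting 32 bases before its start and *Axin2* held none, so 2 of 5 had a match, while 2457 of 32851 mouse promoters of this length had at least 1 (7.48%). A match is a run of letters and not a bound site. The other genes lie at chr11:108920349-108950783 (*Axin2*, plus strand), chr10:115450311-115587780 (*Lgr5*, minus), chr11:5276324-5444847 (*Znrf3*, minus), chr5:119670669-119684724 (*Tbx3*, plus), chr3:88242874-88254709 (*Rhbg*, minus), chr13:56542464-56548502 (*Lect2*, minus) and chr14:65986786-66009207 (*Gulo*, minus).

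*Oat* encodes ornithine aminotransferase, the mitochondrial enzyme that converts ornithine to glutamate semialdehyde. In Control-GalNAc-ASO-treated mice at 15 mg/kg *Oat* was 359, 252, 407 and 258 TPM, and at 20 mg/kg it ran from 254 to 369 TPM with a median of 287. In *Upf3b*-GalNAc-ASO-treated mice it was 51.3, 67.7, 26.5, 72.5 and 77.3 TPM at 10 mg/kg and 50.3, 116, 51.1, 23.9 and 69.2 TPM at 20 mg/kg. Every mouse given the *Upf3b*-GalNAc-ASO therefore lay below every mouse given the Control-GalNAc-ASO. The group means were 18.5% of the control mean at the lower doses and 21.2% at 20 mg/kg. On the scale of log2(TPM + 1), with sex as a covariate, the differences were -2.53 (standard error, SE, 0.33) and -2.37 (SE 0.32). Without the mouse with the fewest reads the first was -2.28.

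DPBS-treated mice covered a wider range of *Oat*, from 91.97 to 446 TPM with a median of 166. All 5 mice at 10 mg/kg of *Upf3b*-GalNAc-ASO lay below that range, while at 20 mg/kg replicate 2, at 116 TPM, lay within it. Against DPBS, *Oat* differed by -1.65 (SE 0.35) at 10 mg/kg and by -1.61 (SE 0.34) at 20 mg/kg. Both Control-GalNAc-ASO groups stood above DPBS on average, by 0.82 (SE 0.31) at 15 mg/kg and 0.72 (SE 0.25) at 20 mg/kg, with overlapping ranges. Without the 3 DPBS mice that stood apart, the 4 differences from DPBS were -1.499, -1.52, 0.94 and 0.83 in the same order. The comparisons with DPBS share these mice, and the differences from DPBS and from the control ASO share the treated mice.

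*Slc1a2* encodes a sodium-dependent glutamate transporter of the plasma membrane. It was 194, 100, 132 and 156 TPM with the Control-GalNAc-ASO at 15 mg/kg, and 119 to 222 TPM with a median of 168 at 20 mg/kg. With the *Upf3b*-GalNAc-ASO it was 37.8, 77.7, 58.5, 60.9 and 58.6 TPM at 10 mg/kg and 42.2, 24.7, 43.5, 26.8 and 21.2 TPM at 20 mg/kg. Again no treated mouse reached the lowest control of its comparison. The treated mean was 40.4% of the control mean at the lower doses and 18.9% at 20 mg/kg, with log2 differences of -1.29 (SE 0.33) and -2.37 (SE 0.28).

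*Slc1a2* was the gene of the set whose treatment difference moved most between the dose pairs. The difference at 20 mg/kg minus that at the lower doses was -1.10 on the log2 scale (SE 0.42), and the mice at 20 mg/kg differed from those at 10 mg/kg by -0.89 (SE 0.38), with 2 of 5 mice at 20 mg/kg (42.2 and 43.5 TPM) within the range of the lower dose. For *Oat* the corresponding values were 0.09 (SE 0.49) and -0.01 (SE 0.44). No gene among all those fitted passed an adjusted p of 0.05 (limma, Benjamini-Hochberg) for the change of effect with the dose pair, with 799 at an unadjusted p under 0.05, nor between the 2 doses of *Upf3b*-GalNAc-ASO, with 464. In DPBS-treated mice *Slc1a2* ran from 72.4 to 287 TPM with a median of 108. All mice at 20 mg/kg and 4 of 5 at 10 mg/kg lay below that range, and the log2 differences were -1.94 (SE 0.30) and -1.07 (SE 0.31). The Control-GalNAc-ASO groups were 0.21 (SE 0.28) and 0.42 (SE 0.24) from DPBS. Without the 3 DPBS mice that stood apart the first pair was -1.88 and -0.98 and the second 0.25 and 0.46.

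*Glul* encodes glutamine synthetase, which fixes ammonium onto glutamate and is the classical marker of the hepatocytes next to the central vein. It was 623, 492.8, 609 and 505 TPM with the Control-GalNAc-ASO at 15 mg/kg, and 525.6 to 917 TPM with a median of 680 at 20 mg/kg. With the *Upf3b*-GalNAc-ASO it was 350, 248, 633, 274 and 240 TPM at 10 mg/kg and 316, 195, 228, 248 and 321 TPM at 20 mg/kg. The groups did not overlap at 20 mg/kg, where the treated mean was 36.8% of the control mean. At the lower doses 4 of 5 treated mice lay below the controls, and replicate 3, the mouse with the fewest reads, lay above them.

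The log2 differences of *Glul* from the control ASO were -0.72 (SE 0.30) at the lower doses and -1.41 (SE 0.23) at 20 mg/kg, and the first was -0.95 without replicate 3. Against DPBS, where *Glul* ran from 331 to 1274 TPM with a median of 593, they were -0.71 (SE 0.26) and -1.06 (SE 0.24). Every mouse at 20 mg/kg was below every DPBS-treated mouse. The Control-GalNAc-ASO groups differed from DPBS by -0.03 (SE 0.26) and 0.31 (SE 0.22). Leaving out the 3 DPBS mice gave -0.66 and -0.998 for the *Upf3b*-GalNAc-ASO and 0.07 and 0.41 for the control ASO.

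*Rhbg* encodes an ammonium and ammonia transporter of the same hepatocytes and was near or under the floor of detection in most mice. It was listed at 0 in 12 of 31 mice. Its values were 4.09, 2.86, 0.276 and 0 TPM with the Control-GalNAc-ASO at 15 mg/kg, and 0 to 0.375 TPM at 20 mg/kg, where 4 of 6 mice were at 0. With the *Upf3b*-GalNAc-ASO they were 0, 12.7, 0, 0 and 2.58 TPM at 10 mg/kg and 0, 3.46, 0.460, 0 and 5.34 TPM at 20 mg/kg, and DPBS-treated mice had 0 to 8.36 TPM. All groups overlapped, and the gene did not pass the filter on low values in any comparison of treatments.

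**Figure D1:**
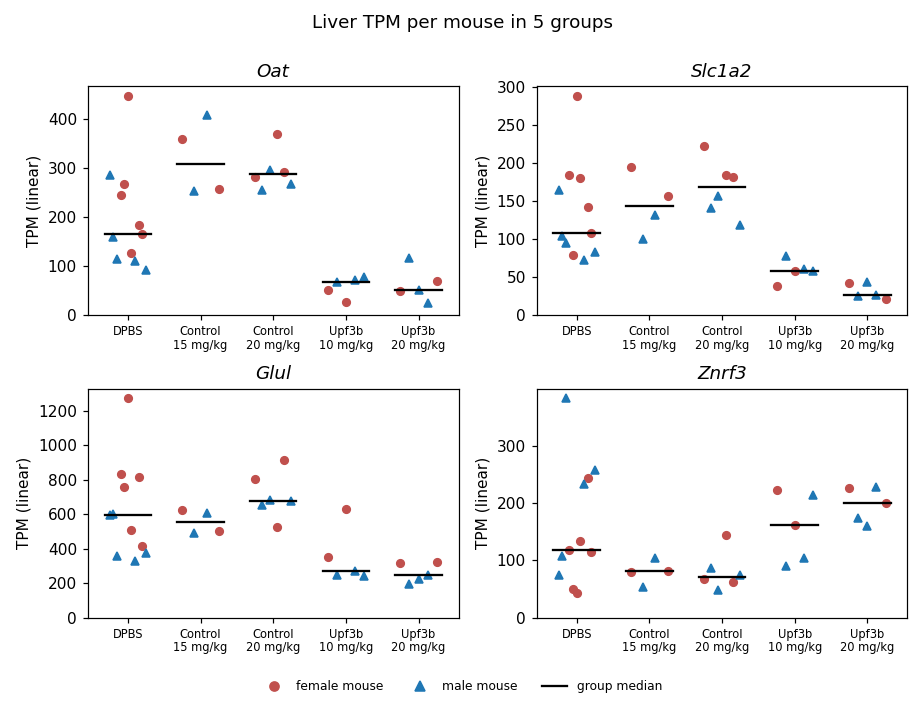
*Oat*, *Slc1a2*, *Glul* and *Znrf3* in TPM (vertical axes) for each mouse of the 5 groups (horizontal axes), with circles for females, triangles for males and a line at each group's median. *Oat* in all 10 *Upf3b*-GalNAc-ASO-treated mice (23.9 to 116 TPM) lies below all 10 Control-GalNAc-ASO-treated mice (252 to 407 TPM). DPBS-treated mice (91.97 to 446 TPM) cover the range of the controls and reach down only to the highest *Upf3b*-GalNAc-ASO-treated mouse.

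Among the regulators of the Wnt pathway, *Znrf3* went the other way. It encodes a membrane ubiquitin ligase that removes Frizzled receptors from the cell surface, is held back by R-spondin and is itself induced by Wnt signalling. With the Control-GalNAc-ASO *Znrf3* was 80.0, 52.9, 104 and 81.8 TPM at 15 mg/kg, and 47.9 to 144 TPM with a median of 71.0 at 20 mg/kg. With the *Upf3b*-GalNAc-ASO it was 223, 90.1, 162, 104 and 214 TPM at 10 mg/kg and 226, 174, 159, 228 and 199.7 TPM at 20 mg/kg. At 20 mg/kg every treated mouse lay above every control and the treated mean was 246% of the control mean, while at the lower doses the ranges overlapped. The log2 differences were 0.97 (SE 0.35) and 1.39 (SE 0.28).

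DPBS-treated mice spread over the whole range of *Znrf3*, from 43.5 to 382 TPM with a median of 118. The difference of *Upf3b*-GalNAc-ASO-treated mice from DPBS was 0.13 (SE 0.42) at 10 mg/kg and 0.51 (SE 0.39) at 20 mg/kg, or -0.17 and 0.23 without the 3 DPBS mice that stood apart, so its sign at 10 mg/kg rested on them. The Control-GalNAc-ASO groups differed from DPBS by -0.77 (SE 0.44) and -0.79 (SE 0.38), or by -1.08 and -1.13 without the same 3 mice. Both groups given the *Upf3b*-GalNAc-ASO thus overlapped DPBS, and their distance from the control ASO was larger than from DPBS.

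*Tbx3* encodes a T-box transcription factor of pericentral hepatocytes that Wnt signalling induces. It was 48.3, 28.8, 75.2 and 56.4 TPM with the Control-GalNAc-ASO at 15 mg/kg and 17.6 to 94.2 TPM at 20 mg/kg, against 38.6, 41.5, 31.4, 17.6 and 36.9 TPM with the *Upf3b*-GalNAc-ASO at 10 mg/kg and 41.5, 107, 56.6, 34.7 and 51.3 TPM at 20 mg/kg. The ranges overlapped in both comparisons, with log2 differences of -0.60 (SE 0.39) and 0.05 (SE 0.39). Against DPBS (23.1 to 122 TPM) the difference was -0.85 (SE 0.35) at 10 mg/kg and -0.13 (SE 0.34) at 20 mg/kg, or -0.89 and -0.15 without the 3 DPBS mice.

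*Axin2*, a scaffold of the complex that degrades β-catenin and a direct Wnt target in many tissues, was low. It was 1.88, 3.58, 10.2 and 3.26 TPM with the Control-GalNAc-ASO at 15 mg/kg and 4.69 to 13.2 TPM with a median of 6.79 at 20 mg/kg. With the *Upf3b*-GalNAc-ASO it was 6.50, 4.48, 2.94, 0.868 and 8.50 TPM at 10 mg/kg and 2.77, 11.9, 0, 2.93 and 24.4 TPM at 20 mg/kg. The mice at 20 mg/kg thus lay on both sides of the controls, 3 below all of them and 1 above. *Axin2* passed the filter on low values only through the 20 mg/kg Control-GalNAc-ASO group, where the difference was -0.60 (SE 0.69), or -1.23 to -0.04 when single mice were left out. With DPBS it was 0.784 to 8.98 TPM with a median of 2.42. That control group itself stood above DPBS by 1.05 (SE 0.46), or 1.11 without the 3 DPBS mice that stood apart. *Axin2* did not pass the filter between DPBS and either *Upf3b*-GalNAc-ASO group.

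*Lgr5* encodes a receptor for R-spondin. It was 0.391, 2.77, 3.61 and 1.53 TPM with the Control-GalNAc-ASO at 15 mg/kg, 1.79 to 7.25 TPM at 20 mg/kg, 1.77 to 10.4 TPM with DPBS, and with the *Upf3b*-GalNAc-ASO 1.84 to 4.30 TPM at 10 mg/kg and 1.02 to 6.56 TPM at 20 mg/kg. All groups overlapped, and the gene did not pass the filter between treatments.

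*Lect2* encodes a secreted protein that hepatocytes release into the blood, and *Gulo* the last enzyme of ascorbate synthesis. *Lect2* was 59.8 to 80.8 TPM and 27.1 to 98.3 TPM with the Control-GalNAc-ASO at 15 and 20 mg/kg, and 34.6 to 71.4 TPM and 29.2 to 99.5 TPM with the *Upf3b*-GalNAc-ASO at 10 and 20 mg/kg. Its log2 differences from the control ASO were -0.45 (SE 0.32) and -0.05 (SE 0.31), with overlapping groups. *Gulo* was 282, 292, 273 and 456 TPM with the Control-GalNAc-ASO at 15 mg/kg and 295 to 459 TPM at 20 mg/kg. With the *Upf3b*-GalNAc-ASO it was 284, 283, 127, 196 and 224 TPM at 10 mg/kg and 244, 299.7, 308, 180.2 and 274 TPM at 20 mg/kg. Its log2 differences were -0.57 (SE 0.33) and -0.44 (SE 0.24), and the first was -0.30 without the mouse with the fewest reads, which had the lowest value of 127 TPM. Groups of *Gulo* overlapped in both comparisons.

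**Figure D2:**
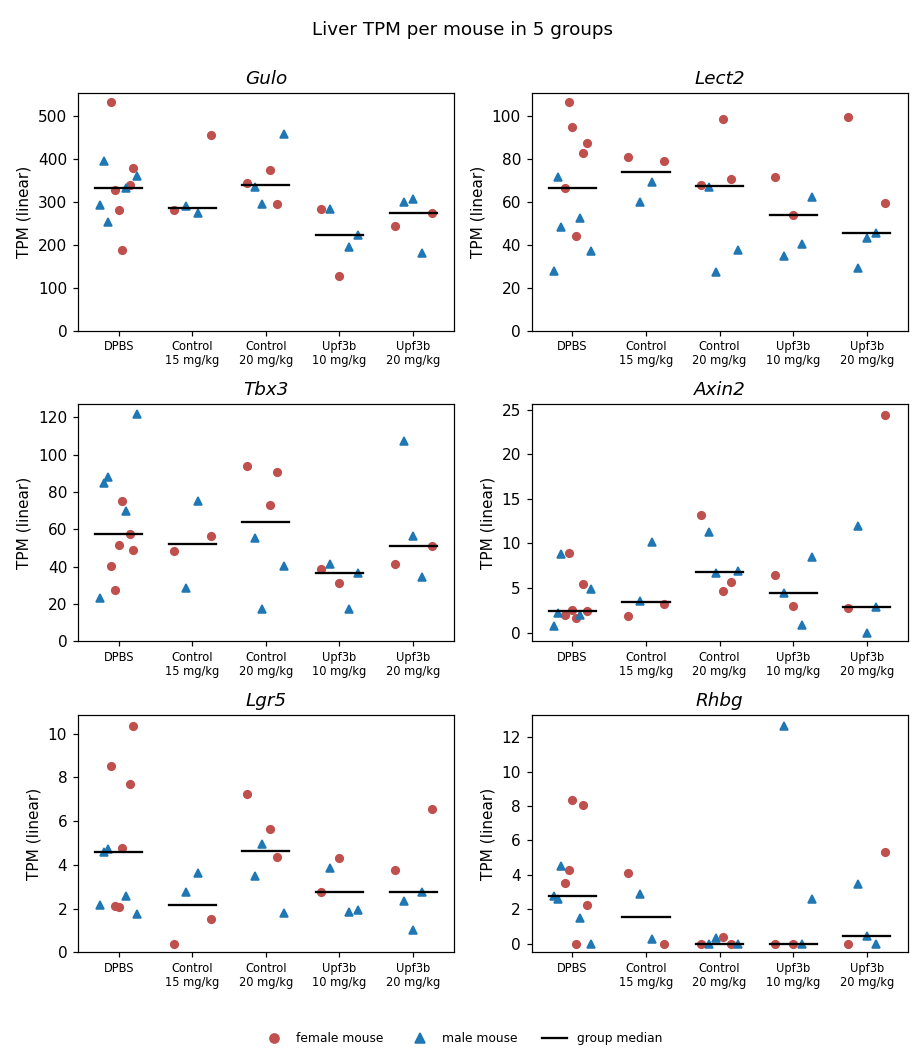
*Gulo*, *Lect2*, *Tbx3*, *Axin2*, *Lgr5* and *Rhbg* in TPM (vertical axes) for each mouse of the 5 groups (horizontal axes), with circles for females, triangles for males and a line at each group's median. The *Upf3b*-GalNAc-ASO groups overlap the control ASO groups for all 6 genes, and *Rhbg* is at 0 in 12 of 31 mice.

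The calls over all genes give the scale for these differences, although the choice of the 10 genes used the same contrasts and nothing is read from their share. In the lower pair of doses, 16 of 9166 genes tested were called lower (0.175%) and 11 higher (0.12%) at an adjusted p under 0.05 (limma, Benjamini-Hochberg), and of the 7 genes of the set that passed the filter *Oat* was called lower and none higher. For the 20 mg/kg groups, 149 of 9376 genes were called lower (1.59%) and 87 higher (0.928%), and of 8 genes of the set *Oat*, *Slc1a2* and *Glul* were called lower and *Znrf3* higher. The call of *Oat* at the lower doses was lost without control replicate 3, and that of *Znrf3* at 20 mg/kg without control replicate 3. Groups that did not overlap were also counted, for all genes over those past the filter and for the set over all 10 unfiltered. Such a split was found at the lower doses for 250 genes with every treated mouse lower (2.73%) and 191 with every treated mouse higher (2.08%), and for 2 of the 10 genes (*Oat*, *Slc1a2*) and 0 of 10. For the 20 mg/kg groups it held for 171 genes in the lower direction (1.82%) and 155 in the higher (1.65%), and for 3 of 10 (*Oat*, *Slc1a2*, *Glul*) and 1 of 10 (*Znrf3*).

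Against DPBS the calls among the 10 genes were 1 at 10 mg/kg and 3 at 20 mg/kg. At 10 mg/kg 24 of 9032 genes were lower (0.266%) and 10 higher (0.111%), with *Oat* alone of the set among the lower. At 20 mg/kg 76 of 9078 were lower (0.837%) and 27 higher (0.297%), with *Oat*, *Slc1a2* and *Glul* among the lower. Every treated mouse lay below every DPBS-treated mouse in 19 genes (0.21%) at 10 mg/kg, *Oat* included, and in 43 genes (0.474%) at 20 mg/kg, *Slc1a2* and *Glul* included. The call of *Oat* at 10 mg/kg was lost without replicate 3, at -1.30, and without replicate 1. Among the calls at 20 mg/kg, that of *Oat* was lost without replicate 1, 5 or 6 and that of *Glul* without replicate 1 or 6. Neither Control-GalNAc-ASO group had a gene called against DPBS (limma), with 644 and 905 genes at an unadjusted p under 0.05, and 50 and 12 genes were called without the 3 DPBS mice that stood apart, none of them of the set.

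The median log2 difference over the tested genes of the set was -0.60 (7 genes) at the lower doses and -0.52 (8 genes) at 20 mg/kg, beside medians of -0.03 and -0.12 over all genes tested. Nothing is read from these medians. Genes below the filter are not in them, the second includes *Axin2*, which passed only through the control group, and that second median ran from -0.85 to -0.29 when single mice were left out. By group mean, *Oat* was ordered from the 15 mg/kg control through the 20 mg/kg control and DPBS to the *Upf3b*-GalNAc-ASO at 20 and then 10 mg/kg. Of its neighbours in that order, only DPBS and the 20 mg/kg *Upf3b*-GalNAc-ASO group differed by more than the larger of their SDs. For *Slc1a2* this held for DPBS against 10 mg/kg and for 10 against 20 mg/kg of the *Upf3b*-GalNAc-ASO, for *Glul* for the 15 mg/kg control against 10 mg/kg, and for *Znrf3* for 10 mg/kg against the 20 mg/kg control. In all 4 genes the ranges of neighbouring groups overlapped.

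**Figure D3:**
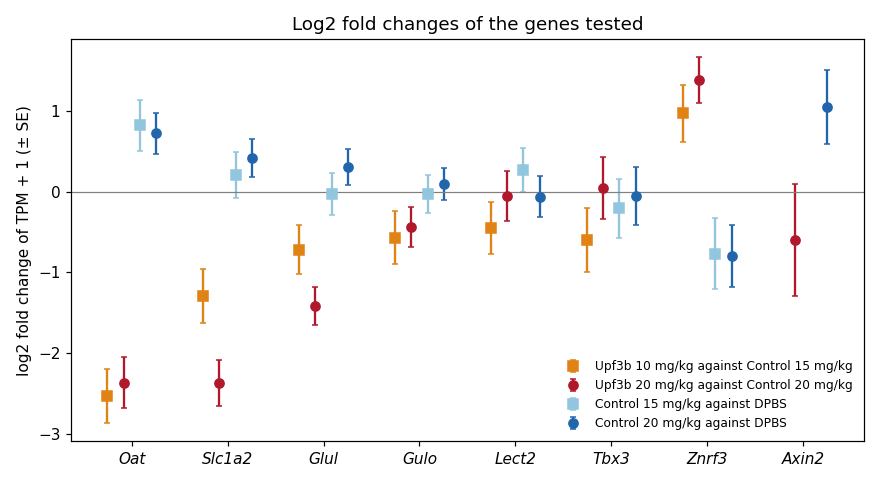
Difference in log2(TPM + 1) with its standard error for the 8 genes that passed the filter (vertical axis: difference, horizontal axis: gene) in 4 comparisons of treatment groups. *Oat* is at -2.53 and -2.37 in the comparisons with the control ASO, and *Znrf3* is at 0.97 and 1.39.

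Males and females were compared because the recorded rule for choosing the genes does not name sex. Among DPBS-treated mice, *Glul* was 767 TPM on average in 6 females and 453 TPM in 5 males, a log2 difference of males from females of -0.71 (SE 0.28, adjusted p = 0.392). *Lect2* was 80.2 TPM in females and 47.3 TPM in males, a difference of -0.76 (SE 0.31, adjusted p = 0.420), and *Znrf3* was 117 and 211 TPM, a difference of 0.85 (SE 0.47, adjusted p = 0.581). *Oat* and *Slc1a2* differed by -0.65 (SE 0.33, adjusted p = 0.544) and -0.59 (SE 0.32, adjusted p = 0.556). Without the 3 DPBS mice that stood apart, all of them female, these 5 differences were -0.58, -0.78, 0.27, -0.48 and -0.50. None of the 8 genes of the set tested passed, while of 8998 genes 60 were higher (0.667%) and 67 lower (0.745%) in males. Among the 20 ASO-treated mice, with group as a covariate, *Lect2* differed by -0.70 (SE 0.22, adjusted p = 0.114) and *Glul* by -0.39 (SE 0.18, adjusted p = 0.360), and *Oat* and *Slc1a2* by 0.15 and -0.15. Again none of 8 tested passed, and of 9797 genes 76 were higher (0.776%) and 89 lower (0.908%) in males. *Lect2* had an unadjusted p of 0.00364 there and 0.0226 among the DPBS-treated mice (limma), and *Glul* had 0.0399 and 0.0195. Both genes were lower in males both times, and neither passed after adjustment.

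The 11 DPBS-treated mice differed widely among themselves in these genes, and 10 relations were examined on log2(TPM + 1) by permutation, with Benjamini-Hochberg adjustment over the 10. *Glul* and *Oat* varied together, with r = 0.88 (permutation p = 0.0005, adjusted 0.005) and rho = 0.82 (permutation p = 0.00328, adjusted 0.0328). Replicate 6 was highest in both (1274 and 446 TPM), and replicates 3, 8 and 11, all males, were lowest in both. Without the 2 mice farthest from the median of *Glul* (n = 9), r was 0.77, within the 6 females it was 0.86, and without the 3 DPBS mice that stood apart (n = 8) it was 0.78. The 5 males were too few for a value of their own.

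The other 9 relations did not pass. *Glul* with *Slc1a2* had r = 0.72 (adjusted permutation p = 0.0598) and *Glul* with *Znrf3* had r = -0.70 (adjusted permutation p = 0.0598), without the 2 mice farthest from the median of *Glul* they were 0.41 and -0.51, and without the 3 DPBS mice that stood apart they were 0.87 and -0.46. *Slc1a2* with *Oat* had r = 0.66 (adjusted permutation p = 0.0677), 0.32 without the 2 mice farthest from the median of *Slc1a2*, and 0.93 without those 3. DPBS replicate 5, with 78.4 TPM of *Slc1a2* beside 756 TPM of *Glul* and 267 TPM of *Oat*, lay off the relation. *Glul* with *Rhbg* had r = 0.63 (adjusted permutation p = 0.0742). Its r was, with *Lect2* 0.53, with *Tbx3* -0.49, with *Gulo* 0.15, with *Axin2* -0.06 and with *Lgr5* -0.00. In the 8 mice left without those 3, the r of *Glul* was 0.58 with *Rhbg*, 0.31 with *Lect2*, -0.50 with *Tbx3*, 0.51 with *Gulo*, -0.24 with *Axin2* and 0.46 with *Lgr5*, with no test.

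**Figure D4:**
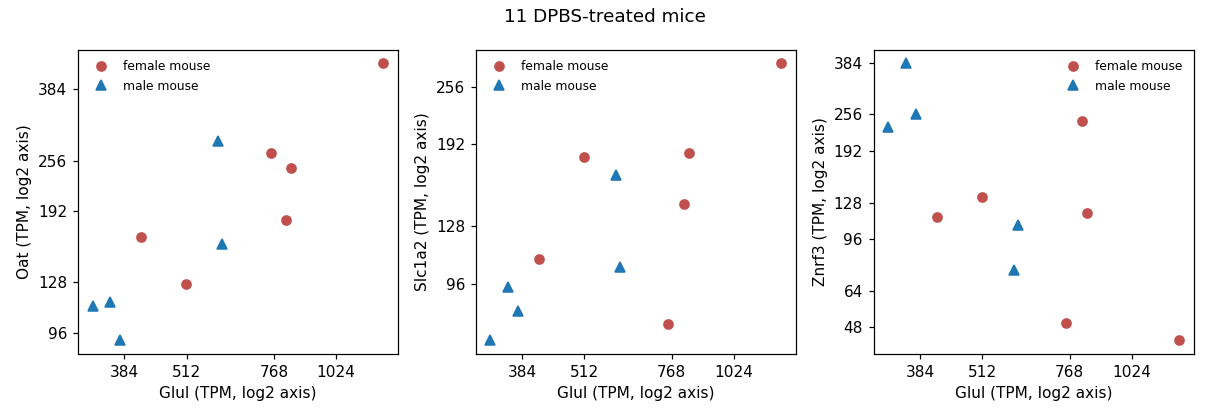
*Oat*, *Slc1a2* and *Znrf3* (vertical axes) against *Glul* (horizontal axes) in the 11 DPBS-treated mice, in TPM on log2 axes, with circles for females and triangles for males. *Oat* rises with *Glul* (r = 0.88), the same mice are more scattered for *Slc1a2* (r = 0.72), and *Znrf3* falls (r = -0.70).

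Over all 31 mice and 8503 genes, with the treatment differences included, the genes most like *Oat* by Pearson's r of log2(TPM + 1) were *Ppm1l* (0.855), *Slc25a3* (0.835), *Lipc* (0.834), *Maob* (0.828) and *As3mt* (0.816). *Slc1a2* was the sixth, at 0.814, and *Glul* ranked 52 with 0.717. Those most like *Slc1a2* were *Maob* (0.877), *Rdh16* (0.856), *Lipc* (0.831), *Dpp4* (0.818) and *Ppm1l* (0.815), with *Oat* at rank 7 and *Glul* at rank 10 with 0.804. *Znrf3* was near the other end of both orders, with -0.669 and -0.581. The points share mice and treatment groups, so these values are a description.

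Other genes of the same hepatocytes, none of them in the set of 10, were described in the same way. The 5 lists of other genes used here and below were also written with earlier results of these data known. Their calls and adjusted p-values are therefore a description and no independent support. Of 24 other pericentral genes, 22 were tested in each comparison with the control ASO. With 20 mg/kg 3 of 22 fell and none rose, while 1.59% of all genes were called lower and 0.928% higher. In that comparison 19 of 22 had a log2 difference below 0, and the median was -0.64 beside -0.12 over all genes, 56.8% of which were below 0. *Slc16a10*, a carrier of aromatic amino acids, was 18.1 ± 7.27 TPM against 74.9 ± 44.9 TPM (log2 difference -1.76, SE 0.41, adjusted p = 0.0245, limma). *Cyp2c37*, a cytochrome P450, differed by -1.42 (SE 0.35, adjusted p = 0.0353), and *Slco1b2*, an organic anion carrier, by -1.10 (SE 0.27, adjusted p = 0.0326). In the lower pair of doses, 16 of 22 were below 0, none passed (0 to 3 falls when single mice were left out), and the median was -0.35 beside -0.03 over all genes, 51.6% of which were below 0. The 2 most abundant, *Cyp2e1* and *Slco1b2*, differed there by -0.35 (adjusted p = 0.552) and 0.07 (adjusted p = 0.940). In fits that left out 1 mouse the count of falls at 20 mg/kg was 0 to 3, and *Slc16a10* stayed past the threshold in 7 of 11 such fits, *Slco1b2* in 5 and *Cyp2c37* in 3. All 3 calls were lost without Control-GalNAc-ASO replicates 2 or 3 or *Upf3b*-GalNAc-ASO replicate 1, and at the lower doses *Slc16a10* was called without *Upf3b*-GalNAc-ASO replicate 3, the mouse with the fewest reads.

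Of 38 other genes of the Wnt pathway, 26 were tested at 20 mg/kg, 2 fell, none rose, 16 were below 0 and the median was -0.30, where 1.59% of all genes fell, 56.8% were below 0 and the median was -0.12. *Lrp6*, a Wnt co-receptor, was 104 ± 35.2 TPM against 250.3 ± 67.3 TPM (log2 difference -1.25, SE 0.28, adjusted p = 0.0204), and *Ccnd1*, a cyclin of the G1 phase that Wnt can induce, was 73.7 ± 56.9 TPM against 184 ± 77.3 TPM (-1.60, SE 0.41, adjusted p = 0.0473). With DPBS *Lrp6* was 155 ± 72.7 TPM, from 64.4 to 290 TPM, and *Ccnd1* 188 ± 118 TPM. Against DPBS at 20 mg/kg *Ccnd1* was called and *Lrp6* was not. At the lower doses 27 were tested and none passed, with 13 below 0 and a median of 0.00 beside -0.03 over all genes. *Lrp6* differed by 1.25 (SE 0.48, adjusted p = 0.233) there, with values of 145 to 1224 TPM in the treated mice, and *Ctnnb1*, which encodes β-catenin, by -0.11 (adjusted p = 0.868). Of 20 periportal genes 19 were tested at 20 mg/kg and none passed, while in fits without 1 mouse 0 to 3 fell and 0 to 1 rose. There 9 of 19 were below 0, with a median of 0.08 and values of -1.22 (adjusted p = 0.0702) for *Pck1* and 0.57 (adjusted p = 0.321) for *Ass1*. The lower doses gave 1 fall of 20, *Tat*, the tyrosine aminotransferase (179 ± 46.8 TPM against 736 ± 277 TPM, log2 difference -1.99, SE 0.34, adjusted p = 0.0237). The 15 mg/kg control group had the highest mean of *Tat*, beside 321 ± 228 TPM with DPBS and 284 ± 56.7 TPM with the control ASO at 20 mg/kg. Against DPBS *Tat* was not called at 10 or 20 mg/kg of *Upf3b*-GalNAc-ASO. Of the 20, 14 were below 0 and the median was -0.18, beside 51.6%, a median of -0.03 and 0.175% called lower over all genes. When single mice were left out, the call of *Lrp6* was kept in 7 of 11 fits, that of *Ccnd1* in 3 of 11 and that of *Tat* in 3 of 9, and *Tat* was lost without any 1 of the 4 control mice.

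Of 25 other genes of glutamate, glutamine, ornithine and proline metabolism, which surround the reactions of *Oat*, *Slc1a2* and *Glul*, 21 were tested at 20 mg/kg and 1 fell, *Slc7a2*, a carrier of cationic amino acids that include ornithine (-0.999, SE 0.26, adjusted p = 0.0456, limma). There 13 of 21 were below 0 and the median was -0.10, beside 56.8% below 0, a median of -0.12 and 1.59% called lower over all genes, and 0 to 3 fell when single mice were left out. None of 20 passed at the lower doses, 15 were below 0 and the median was -0.42, against 51.6% and -0.03 over all genes, with *Slc38a4* at -0.51 (adjusted p = 0.496) and *Glud1* at -0.62 (adjusted p = 0.319). Of 6 other genes of ascorbate synthesis and transport around *Gulo*, *Akr1a1*, which makes the gulonate precursor, rose at 20 mg/kg (757 ± 557 TPM against 273 ± 114 TPM, 1.20, SE 0.30, adjusted p = 0.0379), and none passed at the lower doses, where *Rgn* and *Akr1a1* differed by -0.07 (adjusted p = 0.923) and 0.60 (adjusted p = 0.434). The medians of this list were -0.28 at 20 mg/kg and 0.17 at the lower doses, beside -0.12 and -0.03 over all genes. Of all genes 0.928% were called higher at 20 mg/kg. With DPBS *Akr1a1* was 428 ± 328 TPM, from 106 to 1303 TPM, and no gene of this list was called against DPBS at 20 mg/kg. When single mice were left out, *Slc7a2* kept its call in 3 of 11 fits and *Akr1a1* in 4 of 11.

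**Figure D5:**
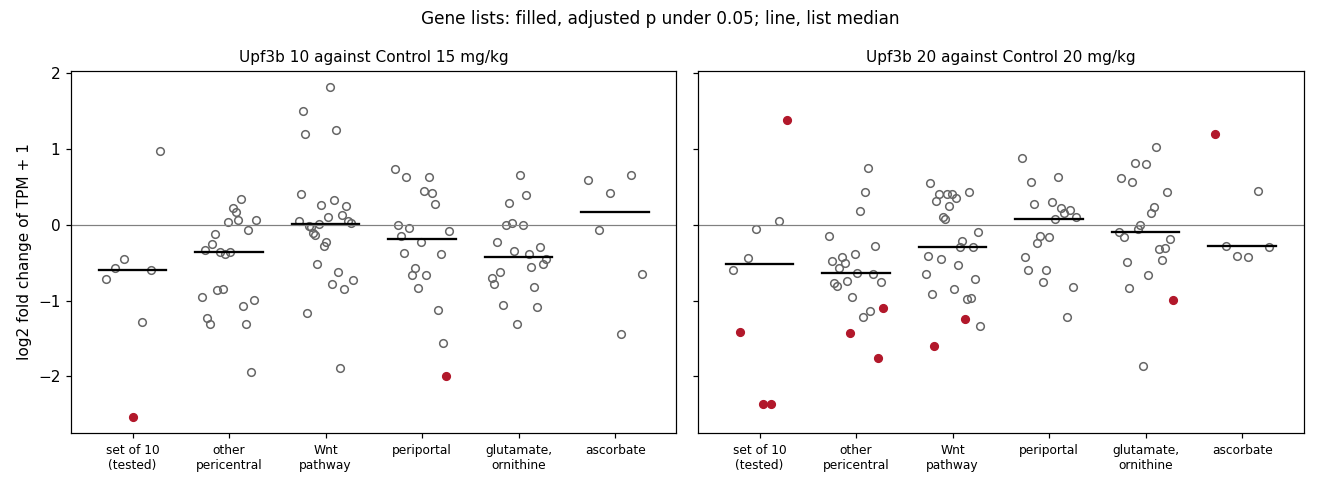
Differences in log2(TPM + 1) from the control ASO (vertical axes) for the tested genes of the set of 10 and of 5 other gene lists (horizontal axes), at the lower doses and at 20 mg/kg, with filled points for an adjusted p under 0.05 and a line at each list's median. For the 20 mg/kg groups 3 of 22 other pericentral genes are filled, a count that was 0 to 3 when single mice were left out, and 1.59% of all genes were called lower.

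Markers of the other cells of the liver were measured beside these genes. The summed level of 9 endothelial markers was 614 to 1659 TPM in Control-GalNAc-ASO-treated mice and 1595 to 2230 TPM in *Upf3b*-GalNAc-ASO-treated mice at 20 mg/kg, the comparison with the 4 calls of the set, and 596 to 1168 and 907 to 2217 TPM at the lower doses. *Pecam1* carried most of this sum and differed by 1.27 at 20 mg/kg (SE 0.28, adjusted p = 0.0201, limma), a call kept in 9 of 11 fits with 1 mouse left out. The other 5 endothelial markers tested at 20 mg/kg did not pass. There 4 of the 6 tested were below 0, among them *Kdr* at -0.72 (adjusted p = 0.349), and the median was -0.07 beside -0.12 over all genes. At the lower doses 4 of 6 were also below 0 and none was called, with a median of -0.45 beside -0.03 over all genes. In DPBS-treated mice the sum of the 9 markers was 608 to 2392 TPM. *Pecam1* was 390 to 2306 TPM there, a range that holds its 1485 to 2022 TPM with 20 mg/kg of *Upf3b*-GalNAc-ASO. Against DPBS no endothelial marker tested was called at 10 or 20 mg/kg. No endothelial marker was at 0 in every mouse of a group. The part of these cells in the levels of *Oat*, *Slc1a2*, *Glul* and *Znrf3* was not tested. Kupffer cell, stellate cell and cholangiocyte markers had no call in either comparison. In the 20 mg/kg groups 2 of 5 Kupffer, 3 of 4 stellate and 0 of 2 cholangiocyte markers tested were below 0, with medians of 0.16, -0.30 and 0.42, and at the lower doses these were 3 of 5, 2 of 5 and 0 of 2, with medians of -0.20, 0.01 and 0.76. Of 6 leukocyte markers none passed the filter at 20 mg/kg and only *Ptprc* did at the lower doses (0.83, adjusted p = 0.586).

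The summed level of the hepatocyte markers was 16790 to 29109 TPM (median 26476) with the Control-GalNAc-ASO and 16770 to 30379 TPM (median 19084) with the *Upf3b*-GalNAc-ASO at 20 mg/kg, and 23457 to 31542 TPM (median 25035) and 15814 to 30808 TPM (median 17393) at the lower doses. All 6 markers tested were below 0 at the lower doses, with a median of -0.44 beside -0.03 over all genes, and 5 of 6 at 20 mg/kg, where both medians were -0.12, and none was called. Their part in the levels of *Oat*, *Slc1a2* and *Glul* was not tested.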

How the data were processed

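RNA from the livers of 31 mice was sequenced, and the authors quantified transcripts with Salmon 0.7.2 against the mouse transcriptome (GRCm38; the submitters' processing notes also name bcl2fastq 2.17.1.14 and GRCm38.p4). They deposited TPM per gene symbol, with 1 file per mouse. The step from transcripts to genes is not given in the sources used here. The labels name a library kit for 3′ ends and the paper's methods another protocol. Of each mouse's nonzero values, 70.2% to 81.6% were whole multiples of 1 step (tolerance 0.02 of a read, where 4% would be by chance), so the deposited TPM were taken as scaled reads not divided by length, and no count test was used. Of 31198 symbols, 26 had been turned into dates and 31172 were used. Groups, replicate numbers and sex came from the sample labels.

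The 10 genes and the gene lists were chosen with earlier results of these data known. Which values chose the 10 genes is not recorded beyond their levels in the 5 groups. Differences were fitted with limma 3.58.1 in R 4.3.3 (eBayes with trend and robust) on log2(TPM + 1) in the groups concerned, sex being a covariate. The filter kept genes whose median reached 5 TPM in 1 or more of those groups, and Benjamini-Hochberg adjustment ran over all genes kept. A fold change on this scale understates that of low genes. Correlations used 100000 permutations, two-sided. Named genes were the 10, those of a list with an adjusted p under 0.05 (at most 5) or else its 2 most abundant, the 5 most like *Oat* or *Slc1a2*, and *Upf3b*. *Kdr* was named after its values were seen. Python 3.11.15, numpy 2.4.6, pandas 2.3.3, scipy 1.17.1 and matplotlib 3.10.9 were used. The methods were tested on simulated data. Alternatives were other pseudocounts, filters, scalings and variance models, no sex covariate, a replicate block and single mice left out. In comparisons of treatments only ASO-treated mice were left out singly. DPBS-treated mice were left out singly only in their comparison of the sexes, and no mouse was in that of the ASO-treated mice. Leaving out 3 DPBS mice was added after seeing the data. The study's own test, which draws on reference cohorts, was not repeated. Positions came from GENCODE M21 (GRCm38) and promoters from RefSeq (GRCm38.p6).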

Additional observations from a re-analysis of the deposited data

Results flagged for a closer look

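In 4 of 40 pairs of a gene and a group with 4 to 10 mice, 1 mouse stood apart by Dixon's criterion, which chance meets in about 1 of 20 groups. *Oat* was 369 TPM in replicate 4 of the Control-GalNAc-ASO group at 20 mg/kg, against 254 to 296 TPM in the other 5 mice. *Glul* was 633 TPM in replicate 3 of the *Upf3b*-GalNAc-ASO group at 10 mg/kg, the mouse with the fewest reads, against 240 to 350.4 TPM in the other 4. *Rhbg* was 12.7 TPM in replicate 2 of the same group, against 0 to 2.58 TPM. *Gulo* was 456 TPM in replicate 4 of the Control-GalNAc-ASO group at 15 mg/kg, against 273 to 292 TPM in the other 3.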

How the results depend on the processing

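Of the log2 differences and correlations of single genes of the set, 612 values with 1 mouse left out and 686 under other settings stayed within 1 SD of the value reported or on the same side of the threshold, 3 passed a threshold they had missed, and 2 moved further, both under the replicate block and against DPBS at 20 mg/kg (*Glul* -1.53, *Znrf3* 1.44). No called difference changed sign.

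Counts of genes called moved more. At the lower doses (27 genes) they were 17 and 56 with pseudocounts of 0.5 and 5, 5 with no filter, 73 with quantile normalization, 16 without trend and robust, 10 without the sex covariate, 95 with the replicate block, and 2 to 431 with 1 mouse left out (2 without Control-GalNAc-ASO replicate 3, 431 and 91 without *Upf3b*-GalNAc-ASO replicates 1 and 3). At 20 mg/kg (236 genes) they were 67 with no filter, 60 without trend and robust, 45 with the block, and 70 to 270 with 1 mouse left out (70 without Control-GalNAc-ASO replicate 3). Against DPBS, 34 genes at 10 mg/kg became 9 with the block, and 103 at 20 mg/kg became 42 with the block, 155 without the 3 DPBS mice that stood apart (an alternative chosen after seeing the data) and 56 to 114 with 1 ASO-treated mouse left out (56 without replicate 6). For the Control-GalNAc-ASO at 15 mg/kg against DPBS, 0 became 2 with no filter, 2 with the block and 50 without the 3 DPBS mice, and at 20 mg/kg 1 with a pseudocount of 5, 12 without the 3 mice and 0 to 2 with 1 ASO-treated mouse left out. For the change of effect with the dose pair, 0 became 2 without trend and robust and 0 to 13 with 1 mouse left out. The median of the set ran from -0.85 to -0.29 at 20 mg/kg and from -0.10 to 0.24 between the *Upf3b*-GalNAc-ASO doses with 1 mouse left out. With a pseudocount of 5, 4 of 10 correlations passed in place of 1.

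Without trend and robust, *Znrf3* lost its call at 20 mg/kg, *Oat* its calls against DPBS at both doses and *Glul* its call against DPBS at 20 mg/kg. With no filter, the calls against DPBS of *Oat* at 10 mg/kg and *Glul* at 20 mg/kg were lost. With the block, *Oat* kept its call at the lower doses and *Oat* and *Slc1a2* theirs at 20 mg/kg, while *Glul* and *Znrf3* lost theirs, and against DPBS the calls of *Oat* at 10 mg/kg and *Glul* at 20 mg/kg were lost. The causes were not tested. Mice with the same number did not deviate together on average. The mean correlation of their deviations was 0.06 over 4 pairs at the lower doses, from -0.18 to 0.36. At 20 mg/kg it was -0.03 over 5 pairs, from -0.26 to 0.10. So few pairs cannot settle whether the numbers pair the mice. Quantile normalization moved the median of all genes at 20 mg/kg by 0.105 and the share of calls that were higher from 36.9% to 49.4%, and median-ratio scaling to 54%. Among ASO mice the share higher in males went from 46.1% to 57.3% and 56.8%. Genes near the floor (*Rhbg*, *Lgr5*, *Axin2*) are limited by depth.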

Other observations

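The *Upf3b*-GalNAc-ASO has the 16 bases ggatatagatgtaacg. Its longest run of complementary bases in an annotated transcript was 16 in *Upf3b*, the only 1 of 55341 genes with the whole run. Among the 10 genes it was 9 in *Tbx3*, 8 in *Znrf3*, 7 in *Slc1a2*, *Axin2* and *Lgr5*, 6 in *Oat*, *Glul* and *Gulo*, and 5 in *Rhbg* and *Lect2*, and runs of at least 9, 8, 7 and 6 bases were found in 4.03%, 15.7%, 41.4% and 73.2% of all genes. Introns were not covered.

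Against DPBS, where the treated mice are shared with the comparisons above, 2 other pericentral genes fell at 20 mg/kg of *Upf3b*-GalNAc-ASO, *Cyp2c37* (log2 difference -1.64, adjusted p = 0.00343, limma) and *Cyp2c29* (-1.27, adjusted p = 0.00343). In the periportal list *Aldh1b1* rose by 1.20 (adjusted p = 0.0123) and *Cdh1* by 1.11 (adjusted p = 0.0134), and in the Wnt list *Ccnd1* fell (-1.38, adjusted p = 0.0488). Of the 19 periportal genes tested, however, 15 were below 0 and 4 above, with a median of -0.20. Of 22 other pericentral genes 18 were below 0 (median -0.47), and of 26 Wnt genes 15 (median -0.05). Over all genes 46.4% were below 0, the median was 0.05, and 0.837% were called lower and 0.297% higher. No gene of the 5 lists was called at 10 mg/kg against DPBS (limma). *Cyp2c37* and *Ccnd1* also differed between the sexes among DPBS-treated mice, by -1.65 (adjusted p = 0.00175) and -1.45 (adjusted p = 0.00801) in males.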
